A study of Mus musculus with 2 samples.

Results

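The TNF superfamily was followed in myeloid cells of subcutaneous mouse pancreatic tumours after deletion of Nrp2, with 40 genes taken by symbol from 49585 rows of the count table. They comprised 16 ligands and 24 receptors. The tumours were grown from pancreatic cancer cell lines in mice of BL6 background that carry floxed NRP2 alleles and CSF1R-iCRE, an inducible recombinase under the promoter of the macrophage colony-stimulating factor receptor gene. In the Nrp2 KO group, mice of that genotype received daily intraperitoneal tamoxifen once tumours could be felt, which activates the recombinase in monocytes and macrophages. The control group had the same genotype, and the labels name no tamoxifen for it, so effects of the drug and of the deletion cannot be told apart. Tumours were taken at 15 days, cells carrying CD11b were collected with magnetic beads, and each group gave 1 library from RNA pooled over 3 animals. The labels leave out the identity of the cell lines and the age of the mice.

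TNF superfamily ligands are trimeric proteins, mostly anchored in the cell membrane, that cluster receptors on a neighbouring cell or, once shed, at a distance. Receptors with a death domain can start apoptosis through FADD and caspase-8, while most others recruit TRAF adaptors and activate NF-κB. Macrophages are a major source of TNF and BAFF, dendritic cells display ligands such as those of 4-1BB and OX40, and activated T cells carry many of the co-stimulatory receptors.

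Nrp2, the deleted gene, had 1017 reads in the Nrp2 KO library and 9686 in the control library, a 9.72-fold lower level (95% interval 6.95 to 13.9). The libraries held 68554172 and 64153676 counted reads in Nrp2 KO and control. Itgam, which encodes CD11b, was read in both, at 422 CPM (reads scaled to library size) in Nrp2 KO and 294 CPM in control, and all 10 macrophage markers were read in both. With 1 library per group no difference has a replicate check and no test was made. Genes read in a single library, with more than 4 reads there, had a median of 24 reads in Nrp2 KO and 47 in control, and these medians were taken as the reads that 1 captured fragment gives. All 95% intervals are exact Clopper-Pearson intervals on reads divided in this way. Counting error is the only error in them, and differences between animals are not. A library at 0 could hold up to 3 such fragments, or 72 reads in Nrp2 KO and 141 in control, and no fold is given for a gene at or under these limits in both libraries.

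The promoters of 5 members are shown because they carry the neighbour comparisons described below. Ltb and Tnf lie 3.1 kb apart and had unlike ratios, Tnfrsf4 and Tnfrsf18 lie 9.6 kb apart and were both lower, and Tnfrsf9 was the most read member past 2-fold. Each is the 250 bases before a RefSeq transcription start (GRCm38.p6), 5′ to 3′ on the gene's strand, with capitals marking a match to the κB consensus or to TATAAA on either strand. The windows are chr17:35194257-35194506, plus strand for Ltb, chr17:35202008-35202257, minus strand for Tnf, chr4:156013445-156013694, plus strand for Tnfrsf4, chr4:156026072-156026321, plus strand for Tnfrsf18 and chr4:150927749-150927998, plus strand for the downstream start of Tnfrsf9.
Ltb: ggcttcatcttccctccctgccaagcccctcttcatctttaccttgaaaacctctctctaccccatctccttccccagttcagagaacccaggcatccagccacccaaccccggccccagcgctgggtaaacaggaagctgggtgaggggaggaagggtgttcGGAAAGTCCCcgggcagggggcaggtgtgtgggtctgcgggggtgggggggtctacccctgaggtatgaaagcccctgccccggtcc
Tnf: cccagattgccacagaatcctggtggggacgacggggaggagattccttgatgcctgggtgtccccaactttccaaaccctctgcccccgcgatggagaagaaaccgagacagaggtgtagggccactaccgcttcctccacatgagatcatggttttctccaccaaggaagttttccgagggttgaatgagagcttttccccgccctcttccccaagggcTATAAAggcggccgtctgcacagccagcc
Tnfrsf4: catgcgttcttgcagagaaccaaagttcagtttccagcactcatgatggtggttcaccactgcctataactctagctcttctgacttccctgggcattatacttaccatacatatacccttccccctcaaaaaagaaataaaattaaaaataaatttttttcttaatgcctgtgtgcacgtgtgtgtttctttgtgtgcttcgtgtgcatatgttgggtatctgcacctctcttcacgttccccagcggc
Tnfrsf18: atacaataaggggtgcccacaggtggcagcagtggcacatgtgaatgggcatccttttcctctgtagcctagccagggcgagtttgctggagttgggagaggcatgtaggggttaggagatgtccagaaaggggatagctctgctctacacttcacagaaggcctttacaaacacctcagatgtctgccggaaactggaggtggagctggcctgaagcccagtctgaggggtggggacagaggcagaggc
Tnfrsf9: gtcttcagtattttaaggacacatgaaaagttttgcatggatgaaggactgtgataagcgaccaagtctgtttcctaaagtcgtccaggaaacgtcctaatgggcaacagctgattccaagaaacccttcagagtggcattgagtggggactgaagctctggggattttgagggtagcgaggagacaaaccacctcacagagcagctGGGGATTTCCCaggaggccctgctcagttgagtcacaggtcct

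RefSeq windows were found for 31 of the 40 members, 34 in all. The κB consensus, to which NF-κB dimers bind, was matched in 4 of these windows (Ltb, Tnfrsf8, Tnfrsf9 and Tnfrsf25), against 7.25% of 32851 windows of all genes. In Ltb the match starts 87 bases before the transcription start. In Tnfrsf9 a pair of overlapping matches starts 43 bases before the downstream start, and the window of its upstream start had 0 matches. TATAAA was found in 6 member windows, Tnf and Tnfsf11 among them, against 12.4% of all windows. The AP-1 letters TGANTCA were found in 6 member windows, against 6.75% of all.

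Of the 40 members, Lta and Cd70 had 0 reads in both libraries and Eda2r had 16 reads in Nrp2 KO and 0 in control. The other 37 had at least 50 reads over both libraries. Among these 13 were at least 2-fold lower in Nrp2 KO, where 14.7% of 14420 genes were, and 2 were at least 2-fold higher, where 10.8% were. The lower count rests partly on shallow genes. Of the 13, 5 lay at or under the fragment limits in both libraries, and the other 8 were Ltb, Tnfsf10, Tnfsf11, Fasl, Cd27, Tnfrsf4, Tnfrsf9 and Tnfrsf18. With genes at 0 in a library held at the limit, 11 members were at least 2-fold lower, against 12.1% of all genes. The median log2 ratio of the 37, Nrp2 KO over control, was -0.47, or -0.30 with such genes at the limit, and that of all genes was -0.01, or 0 with such genes at the limit. Of 14 ligands 6 were at least 2-fold lower, as were 7 of 23 receptors, and the 2 past 2-fold on the higher side, Tnfrsf26 and Tnfrsf8, are receptors. The interval lay below 1 for 12 members (11.1% of all genes) and above 1 for 3 (12.6% of all genes).

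Depth matters for this reading, because shallow genes pass 2-fold more often. Of the 24 members with at least 1000 reads, 5 were at least 2-fold lower, against 4.02% of 9054 genes of that depth (Ltb, Tnfsf10, Tnfrsf4, Tnfrsf9 and Tnfrsf18), and 1 was at least 2-fold higher, against 4.5%. The interval lay below 1 for 9 of them (15.2% of genes of that depth) and above 1 for 3 (18.7% of genes of that depth). Their median log2 ratio was -0.20, and that of all genes of that depth was 0.04.

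**Figure D1:**
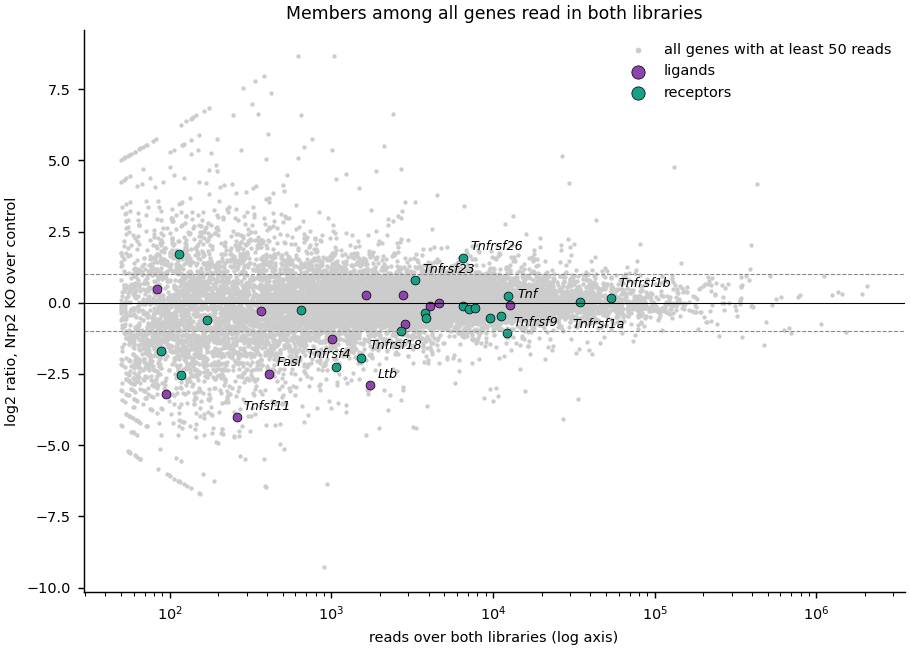
Log2 ratio, Nrp2 KO over control (vertical axis), against the reads of a gene over both libraries (log horizontal axis) for 34 members and 13628 genes read in both libraries, each dot 1 gene and dashed lines 2-fold. Ltb, Tnfrsf4, Tnfrsf18 and Tnfrsf9 lie below the lower line and Tnfrsf26 above the upper line at depths where most genes lie between them.

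Tnf itself (ENSMUSG00000024401, chr17:35199381-35202007, minus strand) differed little. Gene positions here and in what follows are those of GENCODE M21 on GRCm38. Tnf had 6267 reads in Nrp2 KO and 6517 in control, or 93.6 and 99.3 CPM, a ratio of 0.943 (0.764 to 1.17) with 1 inside the interval. It was the most abundant ligand per length in both libraries, at 57.1 RPKM (CPM per kilobase of exon) in Nrp2 KO and 60.6 RPKM in control, and made up 44.3% and 40.0% of the summed ligand RPKM there. Tnfsf12 (TWEAK, a regulator of tissue repair) followed at 23.0 RPKM in Nrp2 KO and 23.3 RPKM in control.

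Ltb (ENSMUSG00000024399, chr17:35194439-35196320, plus strand), which anchors lymphotoxin heterotrimers in the membrane and signals to the lymphotoxin beta receptor, was the well-read ligand with the largest difference. It had 211 reads in Nrp2 KO and 1533 in control, or 3.15 and 23.3 CPM, and was 7.41-fold lower (3.44 to 17.8). Per length it stood 7th among the ligands in Nrp2 KO, at 2.08 RPKM, and 4th in control, at 15.4 RPKM. Tnfsf14 (LIGHT), a ligand of HVEM and of the lymphotoxin beta receptor, was at 29.7 CPM in Nrp2 KO and 31.9 CPM in control, with a ratio of 0.931 (0.64 to 1.37). Within the gene block of chromosome 17 that holds Ltb, Tnf and Lta, the neighbours thus differed: Ltb was lower, Tnf was close to level and Lta was unread.

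Both death ligands were lower. Fasl (ENSMUSG00000000817, chr1:161780689-161788495, minus strand), which triggers apoptosis through Fas and is made mainly by cytotoxic lymphocytes, had 63 reads in Nrp2 KO and 349 in control, 5.65-fold lower with an interval of 1.25 to 38.7. Tnfsf10 (TRAIL; ENSMUSG00000039304, chr3:27317028-27342427, plus strand), the ligand of the TRAIL death receptor, had 296 reads in Nrp2 KO and 710 in control, 2.45-fold lower (1.08 to 5.67). Tnfsf11 (RANKL; ENSMUSG00000022015, chr14:78277445-78308043, minus strand), the osteoclast differentiation factor and a lymphocyte cytokine, had 15 reads in Nrp2 KO and 245 in control. Its 15 reads come to less than a fragment, and the interval of its fold starts at 1.38-fold lower. Most NK cell and T cell markers, given with the other marker lists, were lower in the same library, and their part was not tested.

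The ligands that support B cells differed less. Tnfsf13b (BAFF), a survival factor of B cells made by myeloid cells, was at 16.1 CPM in Nrp2 KO and 27 CPM in control, 1.68-fold lower (1.06 to 2.64). Tnfsf13 (APRIL), its relative, was at 13.5 CPM in Nrp2 KO and 11.1 CPM in control, a ratio of 1.21 (0.655 to 2.35). Tnfsf13 and Tnfsf12 share 60% and 48.3% of their exon bases with the read-through gene Tnfsfm13, so their reads are uncertain.

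Co-stimulatory ligands gave no interval that excludes 1. Tnfsf9 (the 4-1BB ligand) was at 22.9 CPM in Nrp2 KO and 18.9 CPM in control, with a ratio of 1.22 (0.761 to 1.99), and 14.9% of its exon bases lie opposite Gm11110. Tnfsf8 (the CD30 ligand) had 166 reads in Nrp2 KO and 201 in control, with a ratio of 0.809 (0.209 to 3.6). Cd40lg, the T helper cell ligand of CD40, had 0 reads in Nrp2 KO and 104 in control, and Tnfsf4 (the OX40 ligand) had 9 and 86 in those libraries. Tnfsf15 (TL1A) had 49 reads in Nrp2 KO and 34 in control. The last 3 are too shallow in both libraries for a fold.

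**Figure D2:**
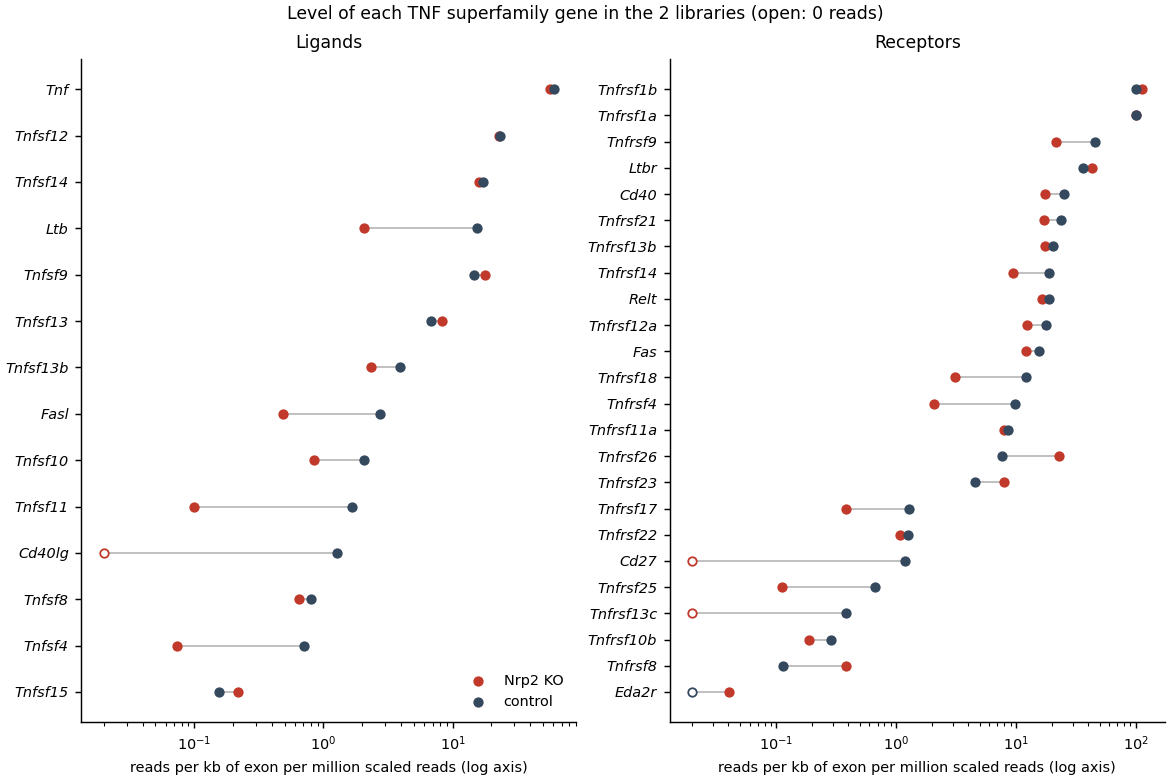
Level of each member with reads, in RPKM (log axis), in the Nrp2 KO library (red) and the control library (dark), ordered by the control level, with open circles for 0 reads. Tnf, Tnfrsf1b and Tnfrsf1a lead both libraries with nearly overlapping dots, and Ltb, Fasl, Tnfsf11, Tnfrsf18 and Tnfrsf4 show wide gaps.

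Among receptors, those of TNF itself were the most abundant and close to level. Tnfrsf1a, the broadly expressed death-domain receptor of TNF, had 17439 reads in Nrp2 KO and 16978 in control, and 100 and 99.8 RPKM, with a ratio of 1.01 (0.886 to 1.15). Tnfrsf1b, the TNF receptor of leukocytes without a death domain, had 28804 reads in Nrp2 KO and 25170 in control. Its ratio of 1.12 had an interval of 1.01 to 1.24, which included 1 after upper-quartile scaling (0.973 to 1.2) or with library totals alone (0.966 to 1.19). Ltbr, the lymphotoxin beta receptor, was at 101 CPM in Nrp2 KO and 85.1 CPM in control, a ratio of 1.18 (0.952 to 1.48). Tnfrsf14 (HVEM), a receptor of LIGHT that also binds BTLA, stood apart from this group, with 913 reads in Nrp2 KO and 1788 in control and a 2.0-fold lower level (1.24 to 3.22) that falls just short of the 2-fold rule. Of its 50-base words, 4.51% also occur in transcripts of other genes.

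Of the 7 co-stimulatory receptors, 5 were at least 2-fold lower (Tnfrsf9, Tnfrsf4, Tnfrsf18, Cd27 and Tnfrsf25), against 14.7% of all genes, and Tnfrsf25 is under the fragment limit in both libraries. The interval lay below 1 for 5 of the 7 (Cd40 in place of Tnfrsf25), against 11.1% of all genes. Markers of T cells, which carry most of these receptors, summed to 79.9 CPM in Nrp2 KO and 240 CPM in control, and their part was not tested. Tnfrsf9 (4-1BB; ENSMUSG00000028965, chr4:150914562-150946102, plus strand), carried by activated T cells, NK cells and some myeloid cells, had 3968 reads in Nrp2 KO and 8169 in control, and was 2.10-fold lower (1.69 to 2.61). Tnfrsf4 (OX40; ENSMUSG00000029075, chr4:156013843-156016612, plus strand), a receptor of activated and regulatory T cells, had 188 reads in Nrp2 KO and 875 in control, 4.75-fold lower (1.97 to 12.7). Tnfrsf18 (GITR; ENSMUSG00000041954, chr4:156026164-156028895, plus strand), likewise high on regulatory T cells, had 317 reads in Nrp2 KO and 1204 in control, 3.88-fold lower (1.92 to 8.19). The control library is the higher in each case. Tnfrsf4 and Tnfrsf18 are neighbours on chromosome 4, and 27.2% of the exon bases of Tnfrsf18 lie opposite the antisense gene Gm16008, which had 0 reads.

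Cd27 (ENSMUSG00000030336, chr6:125232622-125237010, minus strand), a receptor of T cells, NK cells and memory B cells, had 0 reads in Nrp2 KO and 181 in control, at least 2.56-fold lower against the limit of 3 fragments. The 95% interval of that difference starts at 1.24-fold lower. Cd40, through which antigen-presenting cells receive T cell help, was at 59 CPM in Nrp2 KO and 86 CPM in control, 1.46-fold lower (1.14 to 1.85). Tnfrsf25 (DR3), the receptor of TL1A on T cells, had 17 reads in Nrp2 KO and 100 in control, too shallow in both for a fold. Tnfrsf8 (CD30) had 88 reads in Nrp2 KO and 26 in control, and its interval includes 1.

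Death receptors differed less than their ligands in point value. Fas was at 25.1 CPM in Nrp2 KO and 32.4 CPM in control, a ratio of 0.775 (0.526 to 1.15). Tnfrsf21 (DR6), a death-domain receptor, was at 70.8 CPM in Nrp2 KO and 97.8 CPM in control, 1.38-fold lower (1.10 to 1.73). Tnfrsf10b, the mouse TRAIL death receptor, was barely read, with 68 reads in Nrp2 KO and 102 in control.

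Of the 3 receptors with an interval above 1, Tnfrsf26 and Tnfrsf23 lie in a gene cluster on chromosome 7. Tnfrsf26 (ENSMUSG00000045362, chr7:143607659-143628722, minus strand), whose ligand is not established, had 4936 reads in Nrp2 KO and 1614 in control, or 73.7 and 24.6 CPM, and was 3.0-fold higher (2.08 to 4.44). Per length it was the 4th most abundant receptor in Nrp2 KO, at 22.9 RPKM, and the 15th in control, at 7.64 RPKM. Tnfrsf23 (ENSMUSG00000037613, chr7:143665809-143685872, minus strand), a mouse decoy receptor that binds TRAIL without a death domain, had 2102 reads in Nrp2 KO and 1195 in control, 1.72-fold higher (1.10 to 2.80). Its neighbour Tnfrsf22, the other decoy TRAIL receptor, had 302 reads in Nrp2 KO and 351 in control, a ratio of 0.843 (0.316 to 2.43). Tnfrsf26 and Tnfrsf22 are 6.1 kb apart, and Tnfrsf22 and Tnfrsf23 are 16.1 kb apart (GRCm38, GENCODE M21). The decoy receptors resemble each other: 27.4% of the 50-base words of Tnfrsf22 and 19.3% of those of Tnfrsf23 occur in other genes, chiefly in each other, so their reads could be split or lost. For Tnfrsf26 that share is 1.89%. The antisense gene E230032D23Rik, which overlaps 3.3% of the exon bases of Tnfrsf26 and 4.1% of those of Tnfrsf23, had 620 reads in Nrp2 KO and 329 in control. The sources used here do not say whether counting used the strand, and its part in these ratios was not tested.

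Receptors of BAFF and APRIL were led by Tnfrsf13b (TACI), at 49.7 CPM in Nrp2 KO and 58 CPM in control with a ratio of 0.858 (0.647 to 1.14). Tnfrsf13c (the BAFF receptor of B cells) had 0 reads in Nrp2 KO and 51 in control. Tnfrsf17 (BCMA, a receptor of plasma cells) had 21 reads in Nrp2 KO and 68 in control. Both are too shallow for a fold, and markers of B and plasma cells summed to 17.8 CPM in Nrp2 KO and 155 CPM in control. Tnfrsf11a (RANK), through which RANKL drives osteoclast formation, was at 47.3 CPM in Nrp2 KO and 51.1 CPM in control, a ratio of 0.926 (0.689 to 1.25). Relt was at 54.4 CPM in Nrp2 KO and 61.8 CPM in control. Tnfrsf12a (Fn14, the TWEAK receptor) was at 23.8 CPM in Nrp2 KO and 34.6 CPM in control, with an interval of 0.466 to 1.02 that fell wholly below 1 after upper-quartile scaling (0.448 to 0.976) or with library totals alone (0.445 to 0.969).

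**Figure D3:**
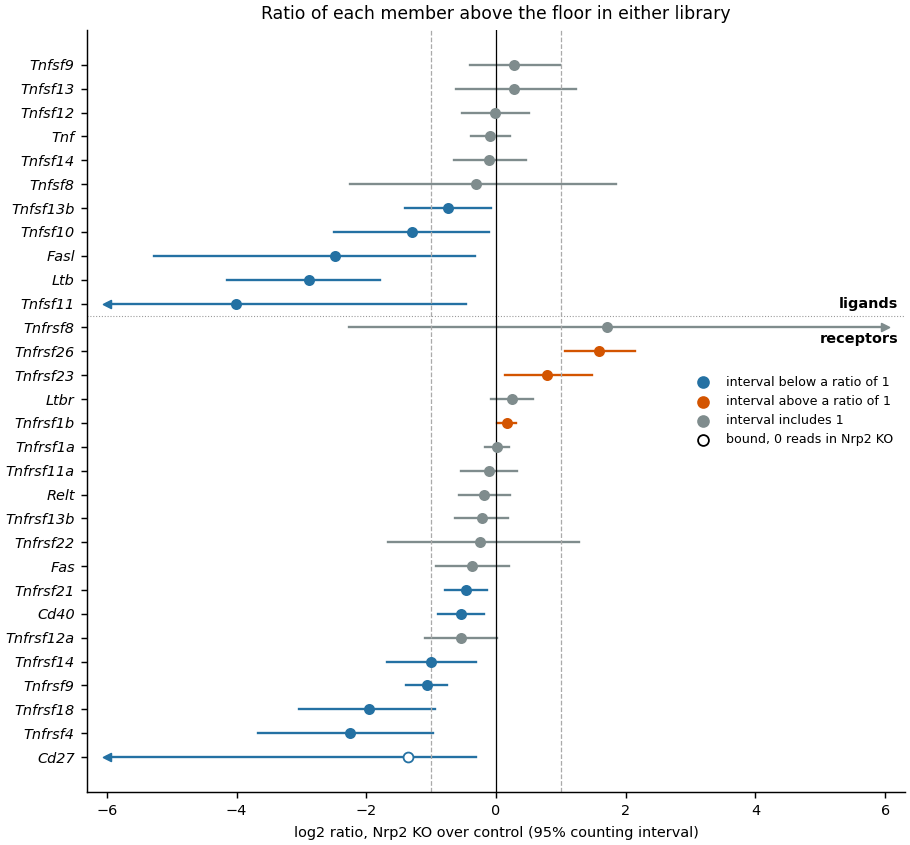
Log2 ratio, Nrp2 KO over control, with 95% counting intervals for the 30 members above the fragment limit in either library, ligands above and receptors below, dashed lines at 2-fold and arrows where an interval leaves the axis. Tnfrsf26, Tnfrsf23 and Tnfrsf1b are the 3 with an interval above 1, and 12 members have an interval below 1.

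Ligands were then set beside their receptors in 24 pairs, 21 of which had at least 50 reads for both genes. In 0 of these 21 were both intervals below 1. The interval of the ligand alone lay below 1 in 9 and that of the receptor alone in 4, both included 1 in 7, and in the pair of Tnf and Tnfrsf1b that of the receptor lay above 1. The 9 rest on 5 ligands, since Tnfsf10 and Tnfsf13b each enter with 3 receptors. Tnfrsf10b, Tnfrsf13c, Tnfrsf17, Tnfrsf25, Tnfsf4, Cd40lg and Tnfsf15 are under the fragment limit in both libraries, and all their intervals include 1. A pair that holds such a gene could hardly have both intervals below 1. Tnfsf4 and Cd40lg are the ligands of pairs in which the receptor alone lay below 1. In 14 of the 21 pairs both genes lie above the limit in at least 1 library. Among single genes, the interval lay below 1 for 5 of 14 ligands and 7 of 23 receptors, against 11.1% of all genes. Fasl was 5.65-fold lower, and its receptor Fas had a ratio of 0.775 with an interval that includes 1. Ltb and Tnfsf11 were lower while the ratios of Ltbr and Tnfrsf11a were 1.18 and 0.926. TRAIL was 2.45-fold lower in the library in which its decoy receptor Tnfrsf23 was 1.72-fold higher. The reverse arrangement was seen for 4-1BB and HVEM, whose ligands Tnfsf9 and Tnfsf14 had ratios of 1.22 and 0.931 while the receptors were 2.10-fold and 2.0-fold lower. In the pair of OX40 and its ligand, both genes had more reads in control, the ligand too few for a fold. Whether ligand and receptor of a pair differ from each other was not tested.

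**Figure D4:**
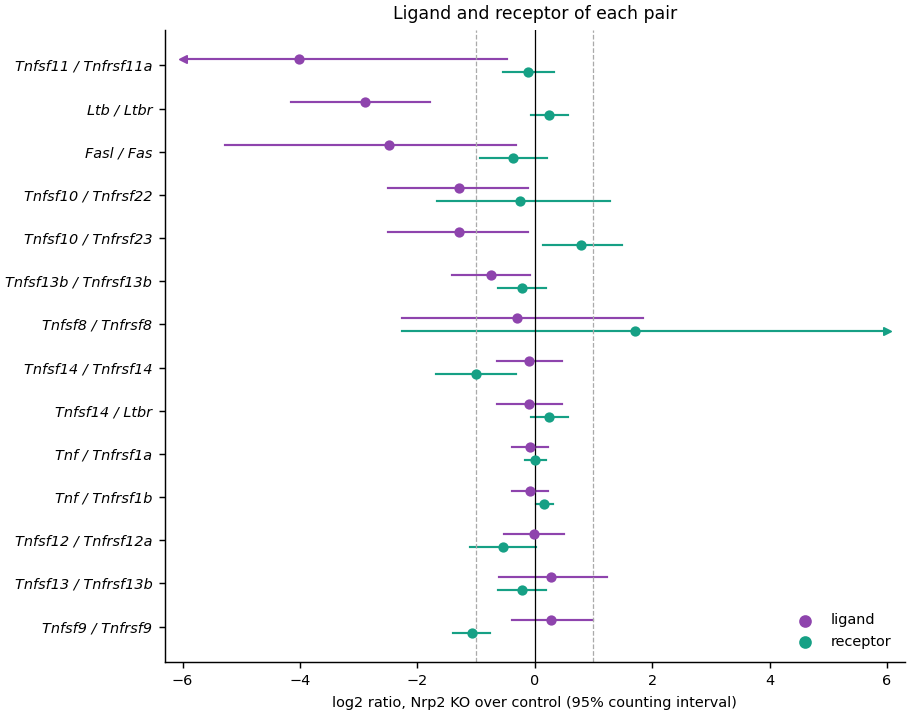
Log2 ratio, Nrp2 KO over control, of the ligand (purple) and the receptor (green) of 14 pairs whose genes were read in both libraries and lie above the fragment limit, with 95% counting intervals and dashed lines at 2-fold. In the upper rows the ligand lies left of its receptor, and in the Tnfsf9 row the receptor lies left of its ligand.

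Several members that were lower are typical of lymphocytes, and most listed markers of those cells were lower in the same library. For the marker lists in this and the next paragraph, 14.7% of all genes passed 2-fold on the lower side and 10.8% on the higher side. Of 15 T cell markers 13 passed 2-fold on the lower side and 0 on the higher side. The interval lay below 1 for 11, against 11.1% of all genes. Cd247 and Trbc2 stayed within 2-fold, with ratios of 1.02 (0.287 to 4.35) and 0.804 (0.299 to 2.32). The summed level of the T cell markers was 79.9 CPM in Nrp2 KO and 240 CPM in control. Single T cell markers ranged from 0.597 to 35.0 CPM in Nrp2 KO and from 3.05 to 100 CPM in control, and none was at 0. Cd4 was the highest of them in both libraries. NK cell markers summed to 44.4 CPM in Nrp2 KO and 124 CPM in control, with 7 of 9 at least 2-fold lower and an interval below 1 for 4. Eomes and Klra8 are among the 7 and lie under the fragment limit in both libraries. Ncr1, with 47 reads in Nrp2 KO and 39 in control, is under it too, and the interval of Klrb1c (0.172 to 1.89) includes 1. Of the 10 markers of B and plasma cells, 7 had enough reads and 6 of these were at least 2-fold lower, the sum being 17.8 CPM in Nrp2 KO and 155 CPM in control. In Nrp2 KO Pax5, Cr2, Fcer2a and Blk were at 0, and in control Cr2 was. Pax5, Ms4a1 and Cd79a are among the 6 and lie under the fragment limit in both libraries, as do Fcer2a and Blk. With genes at 0 held at the limit, the median log2 ratio of these markers was -1.92 in place of -2.68. Conventional dendritic cell markers summed to 161 CPM in Nrp2 KO and 469 CPM in control, with 8 of 10 at least 2-fold lower. The 8 include Xcr1, at 0 reads in Nrp2 KO and 111 in control, which is under the fragment limit in both libraries. With genes at 0 held at the limit, the median log2 ratio of the list was -1.38 in place of -1.45. Macrophage markers summed to 31089 CPM in Nrp2 KO and 27621 CPM in control, with 0 of 10 past 2-fold in either direction. Lyz2 alone gave 15875 CPM of the sum in Nrp2 KO and 12932 CPM in control. The interval lay below 1 for 5 of these 10 markers and above 1 for 4, against 15.2% and 18.7% of genes with at least 1000 reads. In pooled bulk RNA, fewer cells of a type and less RNA per cell cannot be told apart, and the part of these cell types in the member ratios was not tested.

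Eosinophil and endothelial markers were also lower, and neutrophil, monocyte and mast cell markers lay on both sides. Neutrophil markers summed to 1362 CPM in Nrp2 KO and 1065 CPM in control, with 4 of 10 at least 2-fold higher. The 4 include Ly6g, at 96 reads in Nrp2 KO and 0 in control, which is not higher with that 0 held at the limit (log2 ratio -0.58), and the median log2 ratio of the list is then 0.29 in place of 0.77. Monocyte markers summed to 10582 CPM in Nrp2 KO and 3197 CPM in control, of which Chil3 gave 6067 CPM in Nrp2 KO and 338 CPM in control. Of these 8 markers 4 passed 2-fold on the lower side and 3 on the higher side, with a median log2 ratio of -1.15, opposite in sign to the difference of the sums. Eosinophil markers summed to 80.8 CPM in Nrp2 KO and 264 CPM in control, with 4 of 5 past 2-fold lower and Epx at 0 in both. Markers of mast cells and basophils summed to 29.5 CPM in Nrp2 KO and 27.4 CPM in control, with 3 of 6 past 2-fold higher. The 3 include Mcpt8, at 81 reads in Nrp2 KO and 0 in control, which is not higher with that 0 held at the limit (log2 ratio -0.83), and Ms4a2 was at 0 in control too. Epithelial tumour cell, fibroblast and endothelial markers summed to 129, 204 and 34.9 CPM in Nrp2 KO and to 194, 356 and 96.5 CPM in control, with 3 of 7, 3 of 8 and 6 of 8 at least 2-fold lower. Lum (fibroblast) and Tek (endothelial) are counted there and are under the fragment limit in both libraries. Their part was not tested either.

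Downstream of the receptors the pathway was read deeply and mostly stayed within 2-fold. Of 61 adaptors, kinases, NF-κB subunits, inhibitors, caspases, proteases and target genes, 60 had at least 50 reads, 2 passed 2-fold on the lower side (Il1b and Traf4) and 0 on the higher side. All but Traf4 had at least 1000 reads, a depth at which 4.02% of all genes passed 2-fold on the lower side and 4.5% on the higher side. The interval lay below 1 for 14 of the 60 and above 1 for 11, against 15.2% and 18.7% of all genes of that depth, so the second share is near the background. Their median log2 ratio was -0.04.

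Of the 5 NF-κB subunit genes, 3 had an interval below 1, against 15.2% of all genes with at least 1000 reads. Nfkb2, the subunit of the non-canonical pathway that lymphotoxin beta receptor, CD40 and BAFF receptor use, was at 84.1 CPM in Nrp2 KO and 166 CPM in control, 1.97-fold lower (1.63 to 2.37). Its partner Relb was 1.51-fold lower (1.19 to 1.92), and so was Nfkb1 (1.29 to 1.77), while Rela had a ratio of 1.08 (0.877 to 1.34). Traf1, an adaptor bound by TNFR2, CD40 and 4-1BB, had a ratio of 0.513 (0.394 to 0.668), whereas Traf6, the adaptor of CD40, RANK and Toll-like receptors, was 1.86-fold higher (1.47 to 2.38). Fadd, the death-domain adaptor, had 470 reads in Nrp2 KO and 914 in control, a ratio of 0.504 (0.255 to 0.996).

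Kinases and brakes went in both directions. Tbk1 and Map3k7 (TAK1) had ratios of 1.84 (1.45 to 2.35) and 1.72 (1.29 to 2.34), and Map3k5 (ASK1) 1.57 (1.13 to 2.22). Rnf31, the catalytic part of the linear ubiquitin ligase, had a ratio of 0.677 (0.476 to 0.966), and Map3k14 (NIK) 0.737 (0.547 to 0.998). Among inhibitors, Tnfaip3 (A20), which removes ubiquitin chains from the receptor complex, was at 1224 CPM in Nrp2 KO and 739 CPM in control, 1.66-fold higher (1.54 to 1.78). Nfkbia was 1.25-fold higher (1.16 to 1.35) and Nfkbie 1.85-fold lower (1.57 to 2.18), and both encode IκB proteins that hold NF-κB in the cytoplasm. Casp8, the caspase that FADD recruits, had a ratio of 0.782 (0.638 to 0.961). Adam17, the protease that sheds TNF, had a ratio of 0.791 (0.684 to 0.915), and Adam10 1.29 (1.11 to 1.49).

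Genes that TNF is known to induce lay on both sides of 1. Il1b was at 1590 CPM in Nrp2 KO and 3675 CPM in control, 2.31-fold lower (2.22 to 2.41), and Ptgs2 was 1.89-fold lower (1.74 to 2.06). Il6 and Icam1 had ratios of 0.629 (0.432 to 0.92) and 0.816 (0.708 to 0.941). In contrast Vcam1 was at 521 CPM in Nrp2 KO and 286 CPM in control, 1.82-fold higher (1.63 to 2.04). Cxcl2, a neutrophil chemokine, was at 1352 CPM in Nrp2 KO and 1036 CPM in control, with an interval of 1.23 to 1.39. Ier3 and Ccl2 had ratios of 1.49 (1.36 to 1.62) and 1.40 (1.25 to 1.56), and the intervals of Cxcl1, Cxcl10, Ccl5, Sod2 and Bcl2a1b included 1. Bcl2a1b belongs to a family of near-identical copies among which reads could be split. Of 6 superfamily genes outside the 40 members, Ngfr alone reached 50 reads, with 132 in Nrp2 KO and 49 in control and an interval that includes 1. Tnfsf18, the ligand of GITR, had 0 reads in Nrp2 KO and 35 in control, and Tnfrsf11b, the RANKL decoy osteoprotegerin, had 0 in both.

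**Figure D5:**
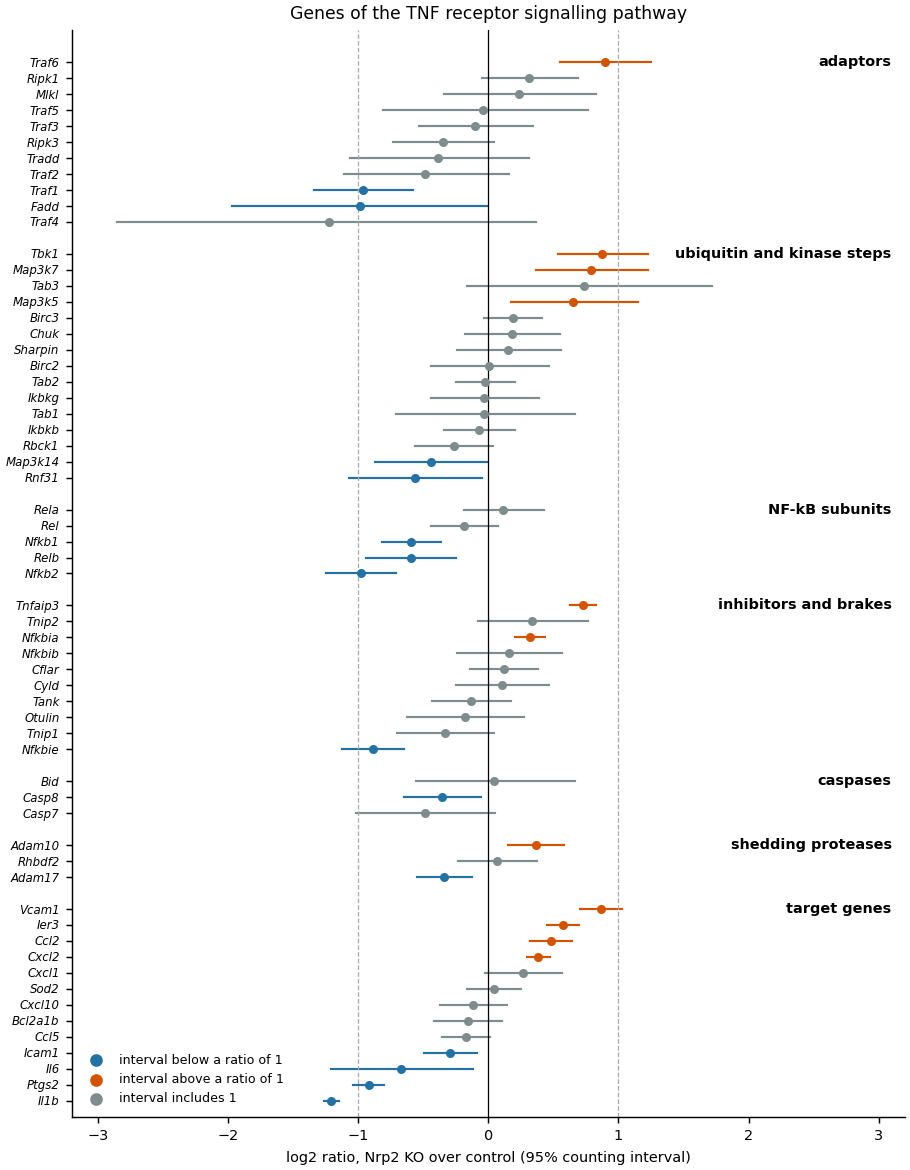
Log2 ratio, Nrp2 KO over control, with 95% counting intervals for 60 pathway genes by subgroup, dashed lines at 2-fold. Il1b is the deeply read gene past the lower line, Traf4 passes it with an interval that includes 1, and 0 genes pass the upper line.

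In the authors' deposited table, the log2 fold change had the sign found here for all 37 members with at least 50 reads. Those fold changes rest on the same libraries, so like signs were all but fixed in advance and are no independent check. With 1 library per group, the adjusted p-values deposited beside them rest on no replicate. They cannot show which genes differ or do not differ, and are not used here.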

How the data were processed

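Per the labels, messenger RNA of CD11b+ tumour cells was sequenced with a stranded mRNA kit, 1 library per group from the pooled RNA of 3 animals. The submitters' processing notes name cutadapt, HISAT2, featureCounts and GRCm38, without versions or options. Per the file headers, read 1 was counted. The authors deposited raw counts per Ensembl gene. The authors also deposited log2 fold changes and adjusted p-values, made by a tool not given in the sources used here.

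Library sizes were scaled by TMM (edgeR 4.0.16, R 4.3.3), with factors of 0.977 for Nrp2 KO and 1.02 for control. Log2 ratios used a prior averaging 0.5 counts, for genes whose summed count reached 50. Intervals used scipy 1.17.1. PCR duplicates are counted as reads, since no molecular identifiers are named. In medians and counts with genes at 0 held at the limit, only genes at 0 in 1 library were changed. Such a gene was set to a log2 ratio of 0 where its other library was at or under the limit. Genes read in both libraries kept their ratio, also when under the limit in both. Symbols, exon lengths and positions came from GENCODE M21, which gave a symbol to 49326 identifiers. DESeq2 1.42.0 supplied alternative size factors, with no DESeq2 test run here. Alternatives were other scalings, priors, count minimums, undivided reads and a 1.5-fold rule. By rule, every member is described, and pathway genes past 2-fold with an interval that excludes 1 and the largest of each subgroup are named. Other pathway genes were named after their values were seen. Of the pathway list, 1 gene is not reported here and was left out of its counts. Members, classes, pairs, pathway genes and markers were chosen with earlier results of these data known. The calculation of ratios and intervals was tried on simulated data. Whether the intervals hold for these libraries, where reads per fragment may differ between genes, was not tested. Shared sequence was measured as 50-base words. Of the 34 promoter windows, 32 matched a GENCODE transcript of the same gene after the start.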

Additional observations from a re-analysis of the deposited data

How the results depend on the processing

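With 1 library per group, leaving out a replicate leaves no comparison. No paired analysis was possible because each group has a single library. Under median-of-ratios, upper-quartile and total-count scaling and a prior of 5 counts, 148 of 148 recomputed member ratios stayed within their own 95% interval, and only Tnfrsf1a, at a ratio of 1.01, turned sign. Most of these intervals are much wider than the shifts, so staying inside them says little. Whether the interval excludes 1 did change for Tnfrsf1b and Tnfrsf12a under upper-quartile and total-count scaling. Scaling moved the median log2 ratio of all genes by at most 0.07. Upper-quartile scaling and library totals each gave 14 members at least 2-fold lower in place of 13, and the 1.5-fold rule gave 16. With at least 1000 counts, 24 members remained, of which 5 passed 2-fold on the lower side and 1 on the higher side. Their median log2 ratio was -0.20. The 13 members left out by that minimum had a median of -2.49, or -0.61 with genes at 0 held at the limit. Of these 13, 8 were at least 2-fold lower. On undivided reads the interval lay below 1 for 27 members and above 1 for 7, in place of 12 and 3, as treating each read as a molecule narrows every interval. The value of reads per fragment is a median over genes read in a single library, and single genes may differ from it.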
